A study of Mus musculus with 8 samples.

Results

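The genes described here are 9 amino acid transporter genes of the mouse: Slc7a5, Slc3a2, Slc38a1, Slc38a2, Slc7a1, Slc7a2, Slc1a4, Slc1a5 and Slc6a9. They were taken by symbol from a table of 55376 genes, all 9 were found, and all 9 had enough counts to be tested. Messenger RNA had been sequenced from macrophages grown from bone marrow in M-CSF at 50 ng/mL, a growth factor that drives marrow cells to become macrophages. Marrow came from 3 male mice of each genotype, aged 13 weeks. The genotypes were wild type (WT) and DNMT3A-HET (HET), and Dnmt3a encodes an enzyme that adds methyl groups to DNA. From day 6, a part of the cultures of each genotype received IL-6 at 10 ng/mL for 2 days, and all RNA was taken on day 8. IL-6 is an inflammatory cytokine that signals through STAT3. The 4 groups, WT control, WT IL-6, HET control and HET IL-6, had 2 libraries each, numbered 1 and 2. The culture medium contained a stable glutamine dipeptide and added non-essential amino acids in every group. The labels tie no library to a mouse and leave pooling unstated, so the p-values cover the spread between libraries alone, and that spread may be technical. They also do not describe the DNMT3A allele or the cell type in which it is altered.

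Amino acid transporters are membrane proteins that carry amino acids into or out of cells, several of them as exchangers that import one amino acid while exporting another. The SLC7A5 protein works only as a pair with the SLC3A2 protein, and the pair imports leucine and other large neutral amino acids in exchange for glutamine. When amino acids run short, the kinase GCN2 phosphorylates the initiation factor eIF2, translation of the transcription factor ATF4 goes up, and ATF4 activates genes of amino acid synthesis and uptake, several of the 9 transporter genes among them. Leucine and arginine that enter a cell are sensed at the lysosome by the growth kinase complex mTORC1. In macrophages, imported arginine feeds nitric oxide synthase and arginase.

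Library totals ran from 18926641 to 24881197 counts, except HET IL-6 number 2 at 50137897. Values below are library-scaled counts (CPM) after scaling by the trimmed mean of M values (TMM), and 3 counts correspond to 0.0608 to 0.161 CPM. Libraries of a WT group differed from each other more than those of a HET group, with a median gene difference on the log2 scale of 0.182 (WT control) and 0.16 (WT IL-6) against 0.105 (HET control) and 0.0892 (HET IL-6). All 12 macrophage markers examined reached 1 CPM, with a summed level of 16774 to 21420 CPM per library. Summed markers of T and NK cells, mast cells, neutrophils, dendritic cells, B cells and red cells stayed at or below 2.89 CPM in every library, and those of megakaryocytes at 8.88 to 20.0 CPM. Stromal markers summed to 3.15 to 9.0 CPM in WT control, 5.57 to 11.2 in WT IL-6, 1.26 to 2.71 in HET control and 2.9 to 5.93 in HET IL-6. In bulk RNA, fewer cells of a type and less RNA per cell cannot be told apart.

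Dnmt3a, the gene of the genotype label, was at 275 and 244 CPM in WT control, 166 and 248 in HET control, 175 and 183 in WT IL-6, and 140.1 and 213 in HET IL-6 (numbers 1 and 2 in each group). Both HET libraries numbered 2 lay above the lower WT library of their treatment, and HET was not called different from WT in control (log2 fold change -0.32 ± 0.25 (SE), adjusted p = 0.506, edgeR) or after IL-6 (-0.02 ± 0.25, adjusted p = 0.972). HET below means the libraries labelled so. In every comparison, fewer transporters and fewer genes were called when both HET libraries of either number were left out. Without both HET libraries numbered 2, the numbers of transporters called were 4 for IL-6 in WT, 4 for IL-6 in HET, 1 for HET against WT in control, 6 for HET against WT after IL-6 and 4 for the difference of the responses, against 5, 5, 2, 7 and 6 with all libraries. All genes called fell in the same order to 1901, 835, 203, 862 and 428, from 2515, 2508, 666, 3021 and 1114.

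All tests were edgeR quasi-likelihood F tests fitted to the 8 libraries together, 2-sided, with p-values adjusted by the Benjamini-Hochberg method over 13721 tested genes. A gene was called higher or lower at an adjusted p under 0.05. The value after ± on a log2 fold change is a standard error worked back from the test. It is the absolute log2 fold change divided by the square root of the F statistic. The comparison of IL-6 with control in HET and that of HET with WT after IL-6 share the HET IL-6 libraries, and the other pairs of an IL-6 comparison with a genotype comparison likewise share a group.

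IL-6 lowered 4 of the 9 transporters and raised 1 in WT, while it raised 5 in HET and the other 4 were not called there. In WT, Slc7a5, Slc38a2, Slc1a4 and Slc6a9 fell and Slc7a2 rose. In HET, Slc7a5, Slc7a1, Slc1a4, Slc1a5 and Slc6a9 rose. Of all tested genes, 7.91% were called higher and 10.4% lower with IL-6 in WT, and 8.87% higher and 9.41% lower in HET. The median log2 fold change of the 9 genes was -0.11 in WT, where that of all tested genes was -0.014, and 0.33 in HET, where that of all tested genes was 0.005. For 6 of the 9 genes the response itself differed between the genotypes: it was more positive in HET for Slc7a5, Slc38a2, Slc7a1, Slc1a4 and Slc6a9 and more negative for Slc7a2. Of all tested genes, 4.52% had a more positive response in HET and 3.6% a more negative one, and the median difference was 0.44 over the transporters and 0.017 over all tested genes.

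**Figure D1:**
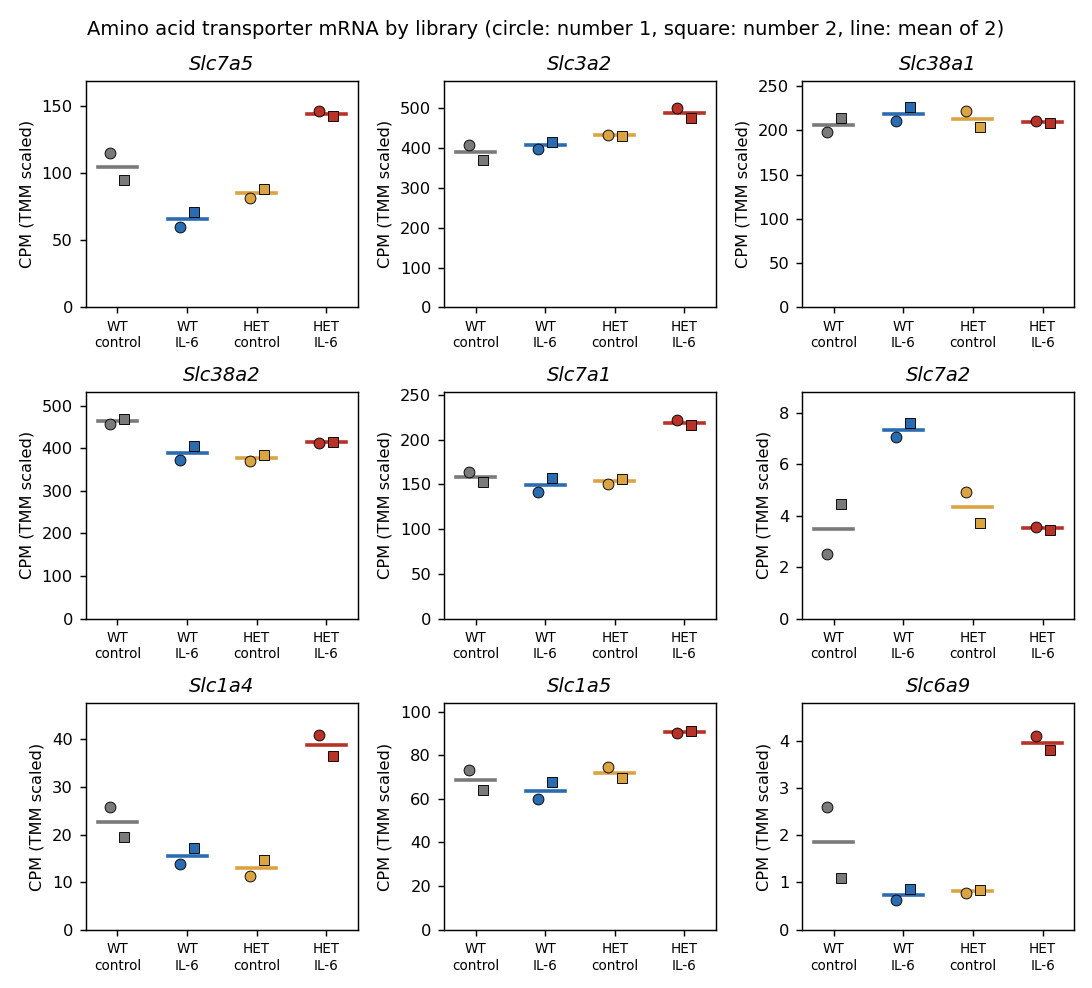
Level of each of the 9 transporter mRNAs in CPM (vertical axis, starting at 0) in the 4 groups (horizontal axis); circles are libraries numbered 1, squares libraries numbered 2, and lines the mean of the 2. Slc7a5, Slc3a2, Slc7a1, Slc1a4, Slc1a5 and Slc6a9 were highest in both HET IL-6 libraries, Slc7a2 in both WT IL-6 libraries and Slc38a2 in both WT control libraries, while the 4 groups lay close together for Slc38a1.

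Compared between genotypes, 2 of the 9 transporters, Slc38a2 and Slc1a4, were lower in HET without IL-6, and the other 7 were not called. Of all tested genes, 2.81% were called higher and 2.05% lower in that comparison. After IL-6, 6 were higher in HET (Slc7a5, Slc3a2, Slc7a1, Slc1a4, Slc1a5 and Slc6a9) and 1 was lower (Slc7a2), with Slc38a1 and Slc38a2 not called. Of all tested genes, 13.2% were called higher and 8.8% lower there. The median log2 fold change of the 9 genes was -0.05 in control and 0.51 after IL-6, and those of all tested genes were -0.004 and -0.008.

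The CPM of the 9 transporters summed to 1447 and 1391 in WT control, 1264 and 1368 in WT IL-6, 1348 and 1352 in HET control, and 1630.0 and 1594 in HET IL-6. Both HET IL-6 sums lay above the 6 others, which ran from 1264 to 1447. Slc3a2, Slc38a2, Slc38a1 and Slc7a1 made up most of the sum in each library.

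Slc7a5 (chr8:121881150-121907694, minus strand, mm10) encodes the light chain that carries leucine and other large neutral amino acids. Its level was 115 and 94.4 CPM in WT control, 59.9 and 71.2 in WT IL-6, 81.7 and 88.1 in HET control, and 146 and 142 in HET IL-6. The 4 groups did not overlap: WT IL-6 was lowest, then HET control, then WT control, and HET IL-6 was highest. With IL-6 it fell by 0.68 ± 0.11 on the log2 scale in WT (adjusted p = 0.000403, edgeR), to 0.624 of the control level. In HET it rose by 0.76 ± 0.10 (adjusted p = 0.000147), which is 1.69-fold. The responses differed by 1.44 ± 0.15 (adjusted p = 0.000147), and after IL-6 the level was 2.2-fold higher in HET than in WT (log2 1.14 ± 0.11, adjusted p = 5.3e-05). By p, Slc7a5 ranked 10 of 13721 tested genes in that genotype comparison. With offsets for GC content and length, the difference after IL-6 was smaller, at 0.87 (adjusted p = 1.34e-05). In control the difference between genotypes was -0.30 ± 0.10 and was not called (adjusted p = 0.115). It was called with offsets for the GC content and length of genes (-0.44, adjusted p = 0.0055), with no filter on low counts (adjusted p = 0.0388) and without WT control number 2 (-0.44, adjusted p = 0.024), but was -0.15 (adjusted p = 0.355) without WT control number 1.

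The summed level of 5 endothelial markers was also lowest in WT IL-6 and next lowest in HET control, at 83.1 to 109 CPM in WT control, 45.2 to 50.8 in WT IL-6, 62.0 to 70.0 in HET control and 85.3 to 85.9 in HET IL-6. Nearly all of it was Vwf, the gene of von Willebrand factor, at 108 and 81.4, 43.0 and 48.2, 59.8 and 67.6, and 83.5 and 83.7 CPM in the same order of groups. Emcn was at 0 in all 8 libraries, and Cdh5, Tie1 and Esam were at or below 2.3 CPM. Cdh5 ran opposite to Vwf, highest in WT IL-6 (2.07, 2.3) and lowest in WT control (0.876, 1.32). HET control (1.97, 2.01) and HET IL-6 (1.49, 1.78) lay between these for Cdh5. Esam was lowest in WT IL-6 like Vwf, but had only 1 to 9 counts per library. The part of endothelial RNA in the levels of Slc7a5 was not tested.

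Slc3a2 (chr19:8706882-8723369, minus strand) encodes the heavy chain that brings the SLC7A5 protein to the cell surface. It was at 408 and 370.4 CPM in WT control, 398 and 415 in WT IL-6, 432 and 431 in HET control, and 500.5 and 475 in HET IL-6. Both HET IL-6 libraries were above all others, and the WT control and WT IL-6 libraries overlapped. The response to IL-6 was 0.06 ± 0.08 in WT (adjusted p = 0.65) and 0.18 ± 0.08 in HET (adjusted p = 0.149), and the difference of 0.12 ± 0.11 was not called (adjusted p = 0.601). The response in HET was called with only the 4 HET libraries (0.18, adjusted p = 0.0159) and with the GC and length offsets (0.15, adjusted p = 0.0414). After IL-6, Slc3a2 was higher in HET by 0.26 ± 0.08 (adjusted p = 0.0312), 1.2-fold. That call was lost without WT IL-6 number 1 (0.23, adjusted p = 0.19), without any single HET library (0.21 to 0.28, adjusted p = 0.0612 to 0.246) and with the GC and length offsets (0.13, adjusted p = 0.139). With the replicate number as a block its adjusted p was 0.0602. In control the difference was 0.15 ± 0.08 and not called (adjusted p = 0.305).

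Slc3a2 thus varied less across the groups than its partner. Per kilobase of exon, the ratio of Slc3a2 to Slc7a5 CPM was 3.72 and 4.12 in WT control, 6.99 and 6.12 in WT IL-6, 5.55 and 5.13 in HET control, and 3.61 and 3.52 in HET IL-6. The ratio was above 1 in every library, highest in WT IL-6 and lowest in HET IL-6. SLC3A2 also pairs with the proteins of Slc7a6, Slc7a7, Slc7a8 and Slc7a11, whose values are given with the other transporters below.

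Slc38a1 (chr15:96571418-96642913, minus strand) and Slc38a2 (chr15:96687392-96699730, minus strand) are neighbours that encode sodium-coupled carriers of glutamine, alanine and other small neutral amino acids. Slc38a1 was at 198 and 214 CPM in WT control, 211 and 227 in WT IL-6, 222 and 204 in HET control, and 210.4 and 209 in HET IL-6. The groups overlapped, apart from WT IL-6 and HET IL-6, which lay close together. None of the 5 comparisons was called: the responses to IL-6 were 0.09 ± 0.08 in WT (adjusted p = 0.508) and -0.02 ± 0.08 in HET (adjusted p = 0.898), and the difference was -0.11 ± 0.11 (adjusted p = 0.627). HET against WT was 0.05 ± 0.08 in control (adjusted p = 0.769) and -0.06 ± 0.08 after IL-6 (adjusted p = 0.628).

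Slc38a2 is a known ATF4 target and the carrier that cells raise when amino acids are withdrawn. Its level was 458 and 470.1 CPM in WT control, 372 and 406 in WT IL-6, 370.2 and 384 in HET control, and 413 and 416 in HET IL-6. WT control was above the 6 other libraries, and HET control and WT IL-6 overlapped. IL-6 lowered it in WT (-0.26 ± 0.08, adjusted p = 0.0334) and the response in HET was not called (0.14 ± 0.08, adjusted p = 0.269), except with only the 4 HET libraries (0.13, adjusted p = 0.0431). The responses differed by 0.39 ± 0.11 (adjusted p = 0.0427). In control it was lower in HET by 0.30 ± 0.08 on the log2 scale (-0.30, adjusted p = 0.0429), and after IL-6 the difference was 0.09 ± 0.08 (adjusted p = 0.418). These 3 calls lay close to the threshold. The fall in WT was lost without WT control number 2, WT IL-6 number 1 or any 1 of the HET libraries (-0.26 to -0.19, adjusted p = 0.0547 to 0.221), with only the 4 WT libraries (adjusted p = 0.184), with no filter (adjusted p = 0.0665) and with either replicate block (adjusted p = 0.0586 and 0.141). The genotype difference in control was lost without WT control number 2 or any HET library (adjusted p = 0.0858 to 0.362), with only the 4 control libraries (adjusted p = 0.0869), with the GC and length offsets (-0.21, adjusted p = 0.0874) and with the block (adjusted p = 0.082). The difference of the responses was lost without WT IL-6 number 1 or any HET library (0.33 to 0.42, adjusted p = 0.113 to 0.219) and with the blocks (adjusted p = 0.0777 and 0.18). With the GC and length offsets, Slc38a2 was called higher in HET after IL-6 (0.28, adjusted p = 0.0151).

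Slc7a1 (chr5:148327410-148399904, minus strand) and Slc7a2 (chr8:40862396-40922308, plus strand) encode carriers of the cationic amino acids arginine, lysine and ornithine. Slc7a1 was at 164 and 153 CPM in WT control, 141 and 157 in WT IL-6, 151 and 156 in HET control, and 222 and 216 in HET IL-6. The first 3 groups overlapped, and both HET IL-6 libraries were well above them. IL-6 raised Slc7a1 in HET by 0.51 ± 0.08 (adjusted p = 0.000412), 1.43-fold (0.48, adjusted p = 0.0947, without both HET libraries numbered 1), and the response in WT was -0.09 ± 0.08 (adjusted p = 0.507). The responses differed by 0.60 ± 0.11 (adjusted p = 0.00609). That call was lost without HET control number 1 (0.58, adjusted p = 0.0547) and without HET IL-6 number 1 (0.57, adjusted p = 0.0519), with nearly the same value. After IL-6, Slc7a1 was 1.47-fold higher in HET than in WT (0.56 ± 0.08, adjusted p = 0.000492), and in control the difference was -0.05 ± 0.08 (adjusted p = 0.787).

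Slc7a2 ran the other way and at a far lower level. It was at 2.51 and 4.46 CPM in WT control, 7.07 and 7.61 in WT IL-6, 4.94 and 3.72 in HET control, and 3.56 and 3.46 in HET IL-6. Both WT IL-6 libraries were above all others, and the WT control libraries were far apart and spanned both HET IL-6 libraries. IL-6 raised Slc7a2 in WT by 1.08 ± 0.23 (adjusted p = 0.00433), 2.12-fold. That value was 0.72 (adjusted p = 0.0406) without WT control number 1 and 1.54 (adjusted p = 0.000235) without WT control number 2. In HET the response was -0.30 ± 0.23 and not called (adjusted p = 0.425), with -0.09 (adjusted p = 0.922) without HET control number 1 and -0.49 (adjusted p = 0.313) without HET control number 2. The responses differed by -1.39 ± 0.33 (adjusted p = 0.0197), a call lost without HET control number 1 (-1.17, adjusted p = 0.126), HET IL-6 number 1 (-1.42, adjusted p = 0.0553) or HET IL-6 number 2 (-1.38, adjusted p = 0.0696). After IL-6 the level in HET was 0.479 of that in WT (-1.06 ± 0.22, adjusted p = 0.00468; adjusted p = 0.0508 without HET IL-6 number 2), and in control the difference was 0.32 ± 0.24 (adjusted p = 0.468), with a range of -0.04 to 0.78 on leaving out 1 library. With the GC and length offsets, the difference after IL-6 was -0.85 (adjusted p = 0.016). An overlap of 6.95% of the exon bases of Slc7a2 with the opposite-strand gene Gm26584 leaves a small share of its reads uncertain. Gm26584 had at most 0.142 CPM.

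Slc1a4 (chr11:20302180-20332713, minus strand) and Slc1a5 (chr7:16781340-16798274, plus strand) encode sodium-dependent exchangers of alanine, serine and cysteine, and the SLC1A5 protein also carries glutamine. Slc1a4 was at 25.7 and 19.5 CPM in WT control, 13.9 and 17.2 in WT IL-6, 11.3 and 14.7 in HET control, and 41.0 and 36.6 in HET IL-6. Both HET IL-6 libraries were above all others, and WT IL-6 and HET control overlapped below WT control. In HET, IL-6 raised Slc1a4 2.97-fold (1.57 ± 0.15, adjusted p = 5.35e-06). In WT it fell by 0.56 ± 0.15 (-0.56, adjusted p = 0.0217), a call lost without WT control number 1 (-0.34, adjusted p = 0.191), without WT IL-6 number 1 (-0.40, adjusted p = 0.202) and with the replicate number within genotype as a block (adjusted p = 0.0528). The responses differed by 2.13 ± 0.22 (adjusted p = 0.000131). HET was lower than WT in control by 0.80 ± 0.16 on the log2 scale (-0.80, adjusted p = 0.0133), a call lost without HET control number 1 (-0.63, adjusted p = 0.197), and 2.51-fold higher after IL-6 (1.33 ± 0.15, adjusted p = 0.00013).

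Promoter windows of RefSeq genes (assembly GRCm38.p6, 250 bases before to 50 after a start) were available for 5 of the 9 transporters, in 8 windows, and were searched for motifs of factors tied to the amino acid response and to IL-6. A match to the ATF4 response element, searched as TGATGNAA on both strands, was found in 1 window, that of Slc1a4, and 3.97% of 32851 mouse promoter windows hold one. It lies on the minus orientation as TTGCATCA and begins 4 bases before the start. The palindrome that STAT3 binds, searched as TTCNNNGAA, was found in the window of the second start of Slc7a1, and 8.3% of all windows hold it. The E-box CACGTG was found in none of the 8, where 7.15% of all windows hold it. The windows of Slc3a2, Slc38a2 and Slc6a9 held no match to any of the 3 motifs. Bases outside the windows were not searched. The stretches below are shown 5′ to 3′ on the gene's strand, with the match in capitals. They come from the Slc1a4 window with the ATF4 element and the Slc7a1 window with the STAT3 palindrome. For contrast, the bases just before a start of Slc3a2 are shown, whose searched window held neither. The 3 stretches lie at chr11:20332710-20332777, chr5:148392893-148393021 and chr19:8713898-8713965, each on the minus strand. The starts shown for Slc7a1 and Slc3a2 lie inside the gene spans given above.
Slc1a4: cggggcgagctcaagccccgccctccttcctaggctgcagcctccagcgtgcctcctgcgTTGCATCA
Slc7a1: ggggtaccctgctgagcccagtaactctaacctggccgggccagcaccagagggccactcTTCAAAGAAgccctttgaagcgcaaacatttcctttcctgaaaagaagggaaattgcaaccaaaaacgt
Slc3a2: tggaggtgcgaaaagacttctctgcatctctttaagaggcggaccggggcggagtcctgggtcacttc
A match is only a match of letters, and whether a factor is bound there was not measured.

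Slc1a5 was at 73.1 and 64.0 CPM in WT control, 60.0 and 67.5 in WT IL-6, 74.5 and 69.5 in HET control, and 90.1 and 91.1 in HET IL-6. Both HET IL-6 libraries were above all others, and the WT control and WT IL-6 libraries overlapped. IL-6 raised it 1.26-fold in HET (0.33 ± 0.09, adjusted p = 0.0194), and the response in WT was -0.11 ± 0.09 (adjusted p = 0.481). The call in HET was lost without any single HET library (0.28 to 0.38, adjusted p = 0.0717 to 0.179) and with the replicate number within genotype as a block (adjusted p = 0.0773). The difference of the responses was 0.44 ± 0.13 and just missed the threshold (adjusted p = 0.0522). It was called with DESeq2 (0.43, adjusted p = 0.0443), with no filter (0.45, adjusted p = 0.0183), with the GC and length offsets (0.30, adjusted p = 0.0346), without WT control number 2 (0.53, adjusted p = 0.00849) and without WT IL-6 number 2 (0.52, adjusted p = 0.0307). After IL-6, Slc1a5 was 1.42-fold higher in HET (0.51 ± 0.09, adjusted p = 0.00193; 0.22, adjusted p = 0.031, with the GC and length offsets). In control the difference was 0.07 ± 0.09 (adjusted p = 0.703).

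Slc6a9 (chr4:117834506-117875198, plus strand) encodes a glycine transporter best known for clearing glycine at synapses. With Slc7a2 it had the fewest counts of the 9: 65 and 25 in WT control, 15 and 16 in WT IL-6, 18 and 20 in HET control, and 99 and 187 in HET IL-6. These correspond to 2.59 and 1.10 CPM, 0.62 and 0.858, 0.787 and 0.837, and 4.10 and 3.79. Both HET IL-6 libraries were above all others, the WT control libraries were far apart, and WT IL-6 and HET control overlapped near the bottom. IL-6 raised Slc6a9 4.82-fold in HET (2.27 ± 0.34, adjusted p = 0.000319). In WT it fell to 0.392 of the control level (-1.35 ± 0.39, adjusted p = 0.0262), a call that rested on WT control number 1 (-0.60, adjusted p = 0.385 without it) and WT IL-6 number 1 (-1.12, adjusted p = 0.176 without it). The responses differed by 3.62 ± 0.52 (adjusted p = 0.00099), and by 2.87 (adjusted p = 0.00299) without WT control number 1. After IL-6 the level was 5.38-fold higher in HET than in WT (2.43 ± 0.36, adjusted p = 0.000542). With the GC and length offsets that difference was 2.12 (adjusted p = 0.00145). In control the difference was -1.19 ± 0.38 and not called (adjusted p = 0.0852), but it was called without WT control number 2 (-1.67, adjusted p = 0.0103), with no filter (adjusted p = 0.0129) and with the GC and length offsets (-1.35, adjusted p = 0.0426), and was -0.44 (adjusted p = 0.5) without WT control number 1. Of its exon bases, 30.2% overlap the opposite-strand genes Ccdc24, Gm17114 and B4galt2, which had 0 to 0.131 CPM, and no source used here gives the strand setting of the counting.

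**Figure D2:**
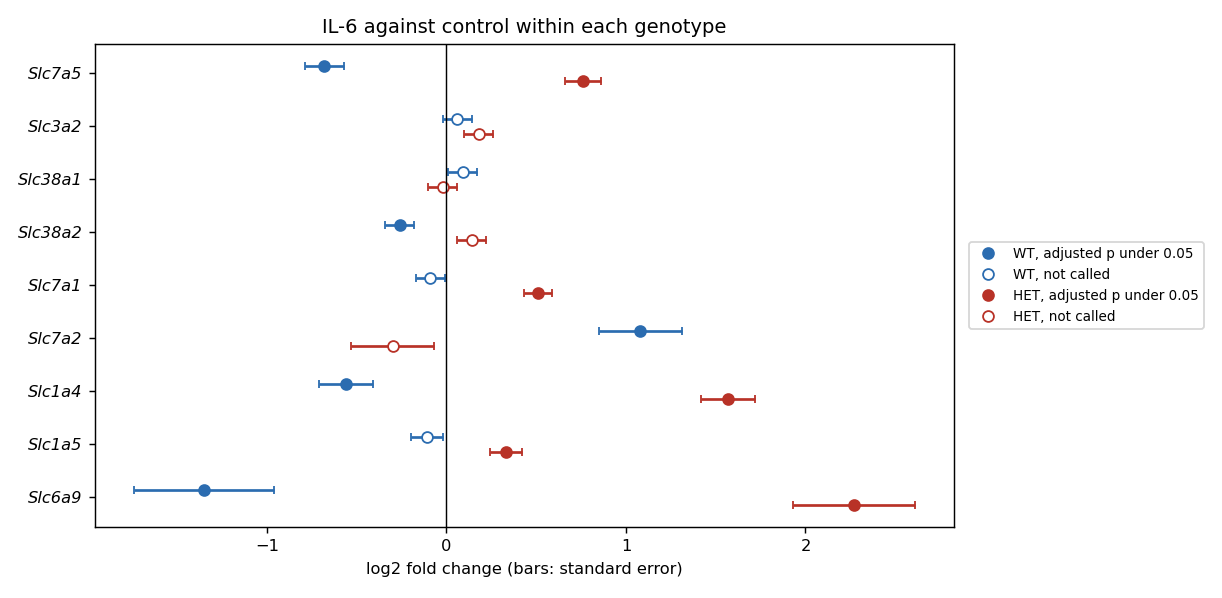
Log2 fold change of IL-6 against control (horizontal axis) for each transporter in WT (blue) and HET (red); bars are the standard error of the edgeR fit, and filled points were called at an adjusted p under 0.05. Slc7a5, Slc1a4 and Slc6a9 have filled points on opposite sides of 0, and Slc7a2 has a filled point in WT only.

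**Figure D3:**
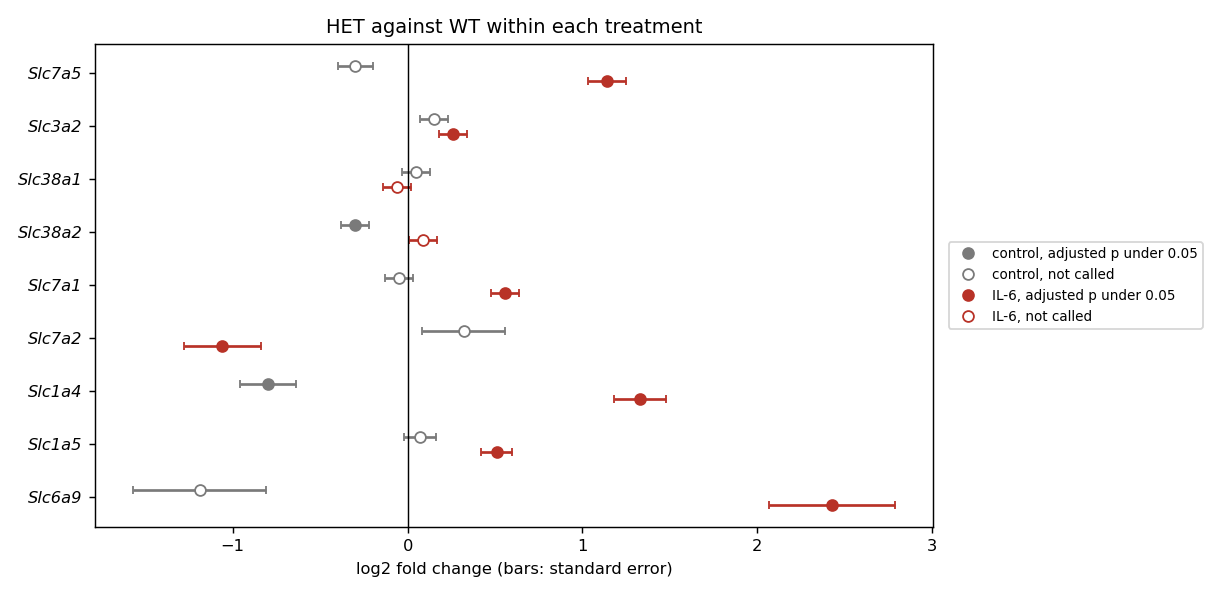
Log2 fold change of HET against WT (horizontal axis) for each transporter in control (grey) and after IL-6 (red); bars are the standard error of the edgeR fit, and filled points were called at an adjusted p under 0.05. For Slc1a4 the filled points lie on opposite sides of 0, at -0.80 in control and 1.33 after IL-6.

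The calls for Slc7a5, Slc1a4 and Slc6a9 with IL-6 in HET, between genotypes after IL-6, and in the difference of the responses were made under each alternative run, leaving out any library included. The falls of Slc1a4 and Slc6a9 with IL-6 in WT were not kept in this way. Across these alternatives the difference of the responses ran from 1.29 to 1.58 for Slc7a5, from 1.87 to 2.41 for Slc1a4 and from 2.87 to 4.10 for Slc6a9. The libraries of the compared groups did not overlap for 5 of the 9 transporters with IL-6 in WT, 8 with IL-6 in HET, 5 between genotypes in control and 9 between genotypes after IL-6. With 2 libraries a group this is common: over all tested genes the libraries did not overlap for 52.6%, 64.8%, 50.6% and 65.1% in the same order, so 5 of 9 is near the background.

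Levels can be compared between genes per kilobase of exon. In WT control, Slc3a2 was highest at 110.3 ± 7.54 CPM per kilobase (SD, n = 2), followed by Slc38a2 at 52.5 ± 0.933 and Slc7a5 at 28.3 ± 3.95. Slc1a5 (16.4 ± 1.54), Slc7a1 (13.7 ± 0.694) and Slc38a1 (12.0 ± 0.695) were next, without overlap in WT control, whereas in WT IL-6 the libraries of Slc7a1 (12.3 and 13.6) and Slc38a1 (12.3 and 13.1) overlapped. Slc1a4 was at 5.77 ± 1.11, and Slc7a2 (0.381 ± 0.151) and Slc6a9 (0.359 ± 0.204) were lowest, with overlapping libraries. In WT IL-6, Slc7a5 was at 16.1 and 19.2 CPM per kilobase and overlapped Slc1a5 at 14.4 and 16.2. In HET IL-6, Slc7a5 was at 39.3 and 38.3, between Slc38a2 at 46.7 and 47.1 and Slc1a5 at 21.6 and 21.8. The order of Slc7a2 and Slc6a9 also differed between groups, with Slc7a2 at 0.774 and 0.833 and Slc6a9 at 0.121 and 0.167 in WT IL-6, and Slc7a2 at 0.39 and 0.379 and Slc6a9 at 0.798 and 0.737 in HET IL-6. Exon length here is the union of all annotated exons of a gene, so the level of a gene whose transcripts leave out long exons is understated.

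**Figure D4:**
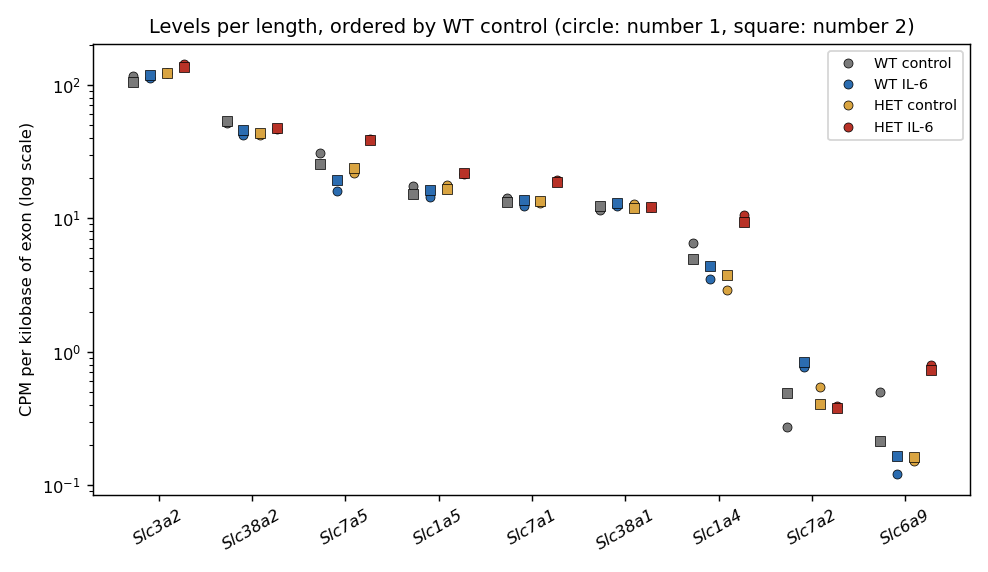
Level of each transporter in CPM per kilobase of exon (vertical axis, log scale) in every library, with genes ordered by their mean in WT control; colours are groups, circles libraries numbered 1 and squares libraries numbered 2. Slc3a2 at 105 to 142 lies above all others in each library, and Slc7a2 and Slc6a9 lie below 1.

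The list of other amino acid transporters held 38 genes in the table, of which 19 could be tested. With IL-6, 7 were higher and 2 lower in WT, and 4 were higher and 4 lower in HET. The response differed for 5 of the 19, with 2 more positive and 3 more negative in HET. Over all tested genes, the shares called higher and lower with IL-6 were 7.91% and 10.4% in WT, and 8.87% and 9.41% in HET. For the difference they were 4.52% more positive and 3.6% more negative, and these shares apply to the lists below too. Slc7a8, another SLC3A2 partner that carries neutral amino acids, was at 304 and 307 CPM in WT control, 497 and 462 in WT IL-6, 468 and 395 in HET control, and 339.9 and 355 in HET IL-6. It rose with IL-6 in WT (0.65 ± 0.09, adjusted p = 0.000142), and its response in HET was more negative by 0.97 ± 0.13 (-0.97, adjusted p = 0.000579), the opposite direction to Slc7a5. Slc7a6, a further partner, also had a more negative response in HET (-0.57 ± 0.14, adjusted p = 0.0258), as did Slc16a10, a carrier of aromatic amino acids (-0.54 ± 0.11, adjusted p = 0.00895). Slc38a7, a lysosomal glutamine carrier, and Slc38a6 had a more positive response (0.81 ± 0.15, adjusted p = 0.00571, and 0.77 ± 0.19, adjusted p = 0.0237). Slc7a11, the cystine carrier that pairs with SLC3A2, rose in both genotypes (0.91 ± 0.16, adjusted p = 0.00105 in WT and 0.75 ± 0.16, adjusted p = 0.00391 in HET). Slc7a7, also a partner of SLC3A2, rose in WT (0.40 ± 0.13, adjusted p = 0.0419), and the difference of its responses was not called (-0.05 ± 0.18, adjusted p = 0.917).

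A list of regulators and targets of the GCN2 and ATF4 amino acid response had 25 tested genes. In WT, 13 were lower and 2 higher with IL-6, and in HET 19 were higher and the other 6 were not called. The response was more positive in HET for 16, and the other 9 were not called, with a median difference of 1.00 over the 25. Asns, which makes asparagine, was at 104 and 88.4 CPM in WT control, 57.1 and 62.7 in WT IL-6, 45.3 and 58.4 in HET control, and 131 and 119.9 in HET IL-6. As for Slc1a4, HET IL-6 was highest, and HET control and WT IL-6 were below WT control. Its responses differed by 1.95 ± 0.16 (adjusted p = 7.02e-05). The response was also more positive in HET for Aldh1l2 (4.11 ± 0.36, adjusted p = 7.5e-05), Atf5 (1.84 ± 0.17, adjusted p = 9.13e-05), Trib3 (2.82 ± 0.28, adjusted p = 0.000344) and the serine and glycine enzymes Shmt2 (1.35 ± 0.13, adjusted p = 9.13e-05) and Psph (1.40 ± 0.18, adjusted p = 0.00042). Between genotypes, 18 of the 25 were higher and 1 lower in HET after IL-6, and 3 were lower in control, with the other 22 not called. Shares over all tested genes were 13.2% higher and 8.8% lower after IL-6, and 2.81% and 2.05% in control.

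**Figure D5:**
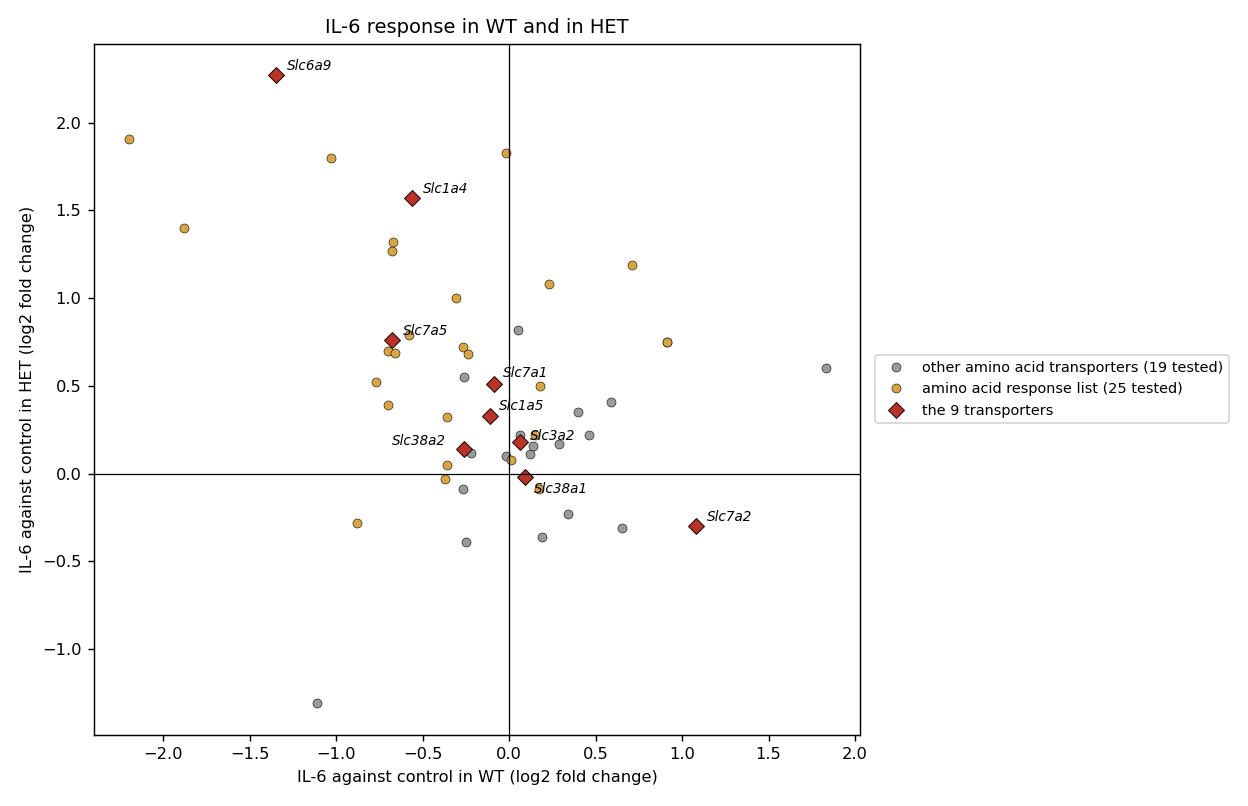
Log2 fold change of IL-6 against control in WT (horizontal axis) and in HET (vertical axis) for the 9 transporters (red diamonds), 19 other amino acid transporters (grey) and 25 amino acid response genes (yellow); Slc7a11 is in both lists. Slc6a9, Slc1a4 and Slc7a5 lie at the upper left, below 0 in WT and above 0 in HET, where many of the amino acid response genes also lie, and Slc7a2 lies at the lower right.

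Of 33 tested genes of amino acid sensing by mTORC1, 2 were higher and 7 lower with IL-6 in WT, and 6 were higher and 4 lower in HET. The 2 higher in WT and the 4 lower in HET are near the shares of 7.91% and 9.41% over all tested genes. The response was more positive in HET for 4, and the other 29 were not called. The 4 were the leucine sensor gene Sesn2 (1.37 ± 0.18, adjusted p = 0.000579), which is also in the ATF4 list, the Rag GTPase genes Rragc (0.48 ± 0.11, adjusted p = 0.0196) and Rragd (0.64 ± 0.16, adjusted p = 0.0241), and Wdr24 (0.56 ± 0.15, adjusted p = 0.0361). Of 22 tested enzymes that use the carried amino acids, the response differed for 4, with Asns and Shmt2 more positive and the arginine synthesis gene Ass1 (-0.66 ± 0.15, adjusted p = 0.0176) and the glutathione synthesis gene Gclm (-0.81 ± 0.20, adjusted p = 0.024) more negative in HET. Asns and Shmt2 are also in the ATF4 list above. Of the enzymes that use arginine, Arg2 rose in both genotypes (1.04 ± 0.24, adjusted p = 0.00685 in WT and 0.96 ± 0.23, adjusted p = 0.0103 in HET), and the difference of its responses was not called (-0.08 ± 0.34, adjusted p = 0.923). Arg1 was between 0.199 and 0.992 CPM in all libraries and was not called in any comparison.

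For each transporter whose response differed between the genotypes, the tested genes with the most similar pattern were found by the root mean square difference of centred log2 CPM over the 8 libraries, with 0.5 CPM added. Slc7a5 was nearest to Mid1ip1 (0.065), Shmt2 (0.081) and Fasn (0.088), against a spread of its own of 0.46 (SD over libraries). Slc1a4 (SD 0.66) was nearest to Asns (0.154), Lipg (0.206) and Osbp2 (0.218). Slc6a9 (SD 0.84) was nearest to Trib3 (0.173), Slc1a4 (0.253) and Hid1 (0.272). Slc7a1 (SD 0.24) was nearest to Itm2c (0.043), Prrc1 (0.052) and Psen2 (0.053), Slc38a2 (SD 0.13) to Lmo2 (0.031), Socs5 (0.042) and Slc9a9 (0.044), and Slc7a2 (SD 0.49) to Hgsnat (0.127), Neto2 (0.149) and Cpd (0.161). A small distance is a description over 8 libraries that share their depth and scaling.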

How the data were processed

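The values analysed were raw read counts per gene, which the authors deposited as 1 table of 55376 genes and 8 libraries with gene spans and exon lengths. Per the submitters' processing notes, the tools were featureCounts 1.6.2, SAMtools 1.9, STAR 2.7.9a and fastp 0.12.4, on the build mm10. No source used here gives the release of the annotation or the strand setting. The gene spans matched GENCODE release M21 for 99.45% of genes, which gave GC content, overlaps and coordinates. The kit was a stranded polyadenylated RNA kit, per the labels' protocols. The table held 26 symbols changed to dates, which were kept as rows.

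Genes were kept with filterByExpr (edgeR 4.0.16 in R 4.3.3, minimum count 10), scaled by TMM and tested with robust quasi-likelihood fits, 1 mean per group and 4 residual degrees of freedom. The spread was estimated over all groups, although WT libraries differed more, so p-values within WT may be too small and those within HET too large. Chi-square per gene between libraries of a group was 6.39 to 18.4, above counting noise alone, so none was counted as a resequenced copy of another. Separate libraries made from 1 culture would also exceed counting noise, so technical repeats of that kind cannot be told apart by it. Alternatives were other scaling, filters and samples, DESeq2 1.42.0, GC and length offsets, replicate blocks and leaving out libraries.

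The transporters, lists, markers and motifs were chosen with earlier results of these data known. All 9 transporters are named, up to 6 genes with the smallest p in a comparison from each list, Dnmt3a, and the 3 genes nearest in pattern; Arg1 and the SLC3A2 partners were added after their values were seen. Promoter sequences are from RefSeq.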

Additional observations from a re-analysis of the deposited data

Results flagged for a closer look

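The IL-6 response differed between HET and WT for 6 of the 9 transporters, which is why they are listed. The test was that of the difference itself (edgeR, adjusted over all tested genes). Of all tested genes, 4.52% had a more positive response in HET and 3.6% a more negative one. The calls for Slc38a2, Slc7a1 and Slc7a2 depended on single HET libraries, as given above. The difference of the log2 responses, HET minus WT, was 1.44 for Slc7a5, 0.39 for Slc38a2, 0.60 for Slc7a1, -1.39 for Slc7a2, 2.13 for Slc1a4 and 3.62 for Slc6a9. For Slc7a5, Slc1a4 and Slc6a9 the response was called in both genotypes and in opposite directions. In WT, the falls of Slc1a4 and Slc6a9 depended on WT control number 1 and WT IL-6 number 1. They were -0.34 and -0.60 without the first, and -0.40 and -1.12 without the second, against -0.56 and -1.35 with all libraries. For Slc7a2 and Slc38a2 the response was called in WT alone, and for Slc7a1 in HET alone. In fits to only the 4 libraries compared, Slc38a2 was instead called in HET (0.13, adjusted p = 0.0431, edgeR) and not in WT (-0.25, adjusted p = 0.184). Like Slc7a5, Vwf was lowest in WT IL-6 and next lowest in HET control. The WT control libraries of Vwf (108 and 81.4 CPM) spanned those of HET IL-6 (83.5 and 83.7). Slc7a5 was highest in HET IL-6. The part of Vwf-expressing cells in these differences was not tested.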

How the results depend on the processing

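Over 22 settings, 944 alternative values of the 45 transporter results were computed: 841 kept their direction and side of the threshold, 66 lost a call, 21 gained one and 16 changed sign, none of them a called value. The cause of each change below was not tested unless fewer samples show it. With 5 transporters called for IL-6 in WT, 3 were called with the replicate block within genotype and 2 to 5 on leaving out 1 library. With 5 for IL-6 in HET, 3 were called without both HET libraries numbered 1, 7 with only the 4 libraries compared and 6 with the GC and length offsets. With 2 between genotypes in control, 4 were called with no filter, 1 with only the 4 libraries compared, 1 with the replicate block over all groups, 1 without both HET libraries numbered 2, 0 without both numbered 1, and 0 to 3 on leaving out 1 library. After IL-6 the count of 7 stayed at 5 to 7. For the difference of the responses, 6 became 3 without both HET libraries numbered 1 and 3 to 7 on leaving out 1 library. Sign changes were, for Slc1a5, -0.08 in control between genotypes with GC and length offsets (-0.08 also with the block, -0.02 to 0.17 on leaving out 1 library) and 0.01 for IL-6 in WT with the offsets (0.01 with the block); for Slc38a1, 0.03 after IL-6 with the offsets (0.03 with the block), -0.01 in control without WT control number 1, HET control number 1 (-0.01 to 0.11 on leaving out 1 library) or both HET libraries numbered 1, and for IL-6 in HET 0.00 with no filter, 0.04 without HET control number 1 and 0.05 without both numbered 1; for Slc3a2, -0.01 to 0.13 for IL-6 in WT on leaving out 1 library; and between genotypes in control, -0.10 to 0.01 for Slc7a1 and -0.04 to 0.78 for Slc7a2 on leaving out 1 library. All genes called moved by over 1.5 times as follows. For IL-6 in WT, 2515 became 1577 without WT IL-6 number 1. For IL-6 in HET, 2508 became 3945 with the 4 libraries alone, 1203 to 1496 without 1 HET library, 835 without both numbered 2 and 697 without both numbered 1. In control between genotypes, 666 became 1078 with no filter, 437 with the 4 libraries alone, 339 with the block, 33 to 1304 on leaving out 1 library (33 without HET control number 1), 203 without both numbered 2 and 79 without both numbered 1. After IL-6, 3021 became 1577 with the offsets, 1424 with offsets and block, 879 without WT IL-6 number 1, 1145 and 912 without either HET library of the IL-6 group, 862 without both numbered 2 and 1042 without both numbered 1. For the difference, 1114 became 732 and 506 with the blocks, 1757 with the offsets, 304 to 2123 on leaving out 1 library, 428 without both numbered 2 and 188 without both numbered 1. Of the 1577 genes called after IL-6 with the offsets, 1066 were also among the 3021. Of the 1424 with offsets and block, 985 were. The labels do not say that a number pairs libraries. The submitters' descriptions place it directly after the genotype, however, in the control and IL-6 libraries alike. In HET, Dnmt3a was at 166 (control) and 140.1 CPM (IL-6) in libraries numbered 1, and at 248 and 213 in those numbered 2. In WT it was at 275 and 175 CPM, and at 244 and 183, in the same order. Deviations from the group means correlated at -0.113 between WT control and WT IL-6 and 0.152 between HET control and HET IL-6. Whether a number marks a shared source was not tested, so the block is only an alternative. With the block within genotype, the IL-6 calls of Slc38a2 and Slc1a4 in WT and Slc1a5 in HET were lost. With the WT numbers crossed, an alternative chosen after seeing the data, 4443 genes were called for IL-6 in WT, 4435 in HET and 3121 for the difference, with 5, 7 and 7 transporters. With the low counts of Slc6a9 and Slc7a2, values in WT control rest on libraries that are far apart.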
